A study of Mus musculus with 2 samples.

Results

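Peaks crowded with footprints were examined in DNase-seq of the left cerebral cortex. A peak was called crowded where at least 8 footprints of its own library overlapped it by at least 1 base. These were 1176 of 132054 peaks in library 1 (0.891%) and 2008 of 139799 peaks in library 2 (1.44%). The tissue came from female B6CASTF1/J mice, a first-generation cross of C57BL/6J and CAST, at 18 to 20 months of age. The labels give 1 group of 2 libraries, numbered here by their biological replicate, and name no treatment, mutant allele or other condition. Both libraries carry the same donor identifier with separate tissue samples, and whether they came from separate animals is not stated. The spread between them may therefore be technical. Although the labels give female tissue, 50 peaks in library 1 and 51 in library 2 were listed on chromosome Y, and 1 of these was crowded, in library 1. No source used here gives the number of reads. Depth is therefore unknown, and the intervals printed below cover only the counting of regions.

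DNase I cuts DNA that is not wrapped in nucleosomes, and a peak is a stretch where cuts pile up. Within a peak, a footprint is a short run of bases that was cut less than its surroundings, as happens where a protein sits on the DNA. Promoters are known to bind many factors side by side, among them SP and KLF proteins at GC boxes, NRF1, CREB and ETS proteins, and many mammalian promoters lie in CpG islands, which are rich in G, C and the CpG dinucleotide.

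The sequences of 6 such peaks show what a crowded region looks like at the level of bases. They were taken from the peaks with the most footprints, with the most footprints per 100 bases and away from annotated starts. The peak near Fbxo11 lay 989 bases and that in Fgf14 1427 bases from the nearest start. Each is the plus strand of RefSeq GRCm38 (mm10), 5′ to 3′, over at most 300 central bases of the library 1 peak. Capitals mark the bases that lay inside footprints of both libraries.

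near Fbxo11: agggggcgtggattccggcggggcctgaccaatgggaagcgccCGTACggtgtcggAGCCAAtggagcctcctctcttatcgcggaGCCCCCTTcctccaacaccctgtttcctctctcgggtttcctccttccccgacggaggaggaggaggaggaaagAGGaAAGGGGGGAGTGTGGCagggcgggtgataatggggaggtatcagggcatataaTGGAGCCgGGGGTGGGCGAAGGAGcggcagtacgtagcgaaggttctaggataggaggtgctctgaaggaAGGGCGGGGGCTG
Abtb1: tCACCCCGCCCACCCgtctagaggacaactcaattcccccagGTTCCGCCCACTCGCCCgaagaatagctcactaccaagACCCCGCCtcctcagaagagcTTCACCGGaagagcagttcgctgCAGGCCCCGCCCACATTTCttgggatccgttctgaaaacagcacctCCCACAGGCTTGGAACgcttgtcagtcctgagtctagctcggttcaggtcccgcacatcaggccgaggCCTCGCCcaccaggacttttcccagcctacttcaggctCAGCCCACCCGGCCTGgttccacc
Wipi1: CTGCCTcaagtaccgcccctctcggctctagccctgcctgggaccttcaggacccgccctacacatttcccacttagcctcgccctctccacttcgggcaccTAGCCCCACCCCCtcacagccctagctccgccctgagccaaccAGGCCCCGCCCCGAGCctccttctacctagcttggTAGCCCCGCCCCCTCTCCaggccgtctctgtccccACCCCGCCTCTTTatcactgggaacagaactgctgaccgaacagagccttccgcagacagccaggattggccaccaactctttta
Tmem147: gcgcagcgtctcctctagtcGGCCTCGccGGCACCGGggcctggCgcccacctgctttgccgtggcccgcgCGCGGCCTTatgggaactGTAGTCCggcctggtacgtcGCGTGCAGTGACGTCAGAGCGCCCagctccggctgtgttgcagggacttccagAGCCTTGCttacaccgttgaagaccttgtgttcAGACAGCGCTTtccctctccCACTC
Rnf10: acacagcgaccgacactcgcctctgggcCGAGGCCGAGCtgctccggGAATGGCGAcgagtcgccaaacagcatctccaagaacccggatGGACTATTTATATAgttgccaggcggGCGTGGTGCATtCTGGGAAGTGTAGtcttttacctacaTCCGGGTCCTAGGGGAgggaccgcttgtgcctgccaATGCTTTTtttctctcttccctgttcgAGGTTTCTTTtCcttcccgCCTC
Fgf14: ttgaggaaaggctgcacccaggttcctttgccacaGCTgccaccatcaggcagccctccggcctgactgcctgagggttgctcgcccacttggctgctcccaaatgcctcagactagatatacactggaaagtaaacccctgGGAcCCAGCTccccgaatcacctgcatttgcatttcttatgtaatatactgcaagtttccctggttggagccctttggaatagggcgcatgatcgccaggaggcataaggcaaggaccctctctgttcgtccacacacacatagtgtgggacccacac

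The window near Fbxo11, at chr17:88066131-88066430, held 8 stretches of capitals with 74 of its 300 bases. That of Abtb1, at chr6:88842071-88842370, held 8 stretches with 105 bases. Both libraries marked 3 GC boxes (GGGCGG on either strand) there by the middle of the match. In the window of Wipi1, at chr11:109611581-109611880, 5 GC boxes were found, of which 2 lay in capitals. The promoter of Tmem147, at chr7:30729461-30729680, held 9 stretches within 220 bases, and one of them covers the palindrome TGACGTCA, the letters of a CREB site. The promoter of Rnf10, at chr5:115272821-115273060, held 10 stretches within 240 bases, with a match to the letters CTATTTATA of MEF2 factors in capitals. That match overlaps one to a TATA box. The window in an intron of Fgf14, at chr14:124675551-124675850, held 56 footprinted bases in library 1 and 50 in library 2, of which only 12 were the same. Windows not printed here also held few shared bases, 26 of 300 at the promoter of Syndig1 and 36 of 300 near Spred1. A match of letters is a description and does not show which protein was bound.

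Footprints per peak tailed off steadily, with no gap at the threshold. The number of peaks with exactly 8 footprints was 613 in library 1 and 947 in library 2, and with exactly 7 it was 1281 and 1768. The most were 16 in library 1 and 20 in library 2. Peaks with 8 footprints had a median width of 340 bases in library 1 and 380 in library 2. Peaks with 7 had 300 and 320. The median signal was 3.15 and 2.47 at 8 footprints, and 3.03 and 2.64 at 7. The members were chosen by their footprint number, so these values are given as a description.

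**Figure D1:**
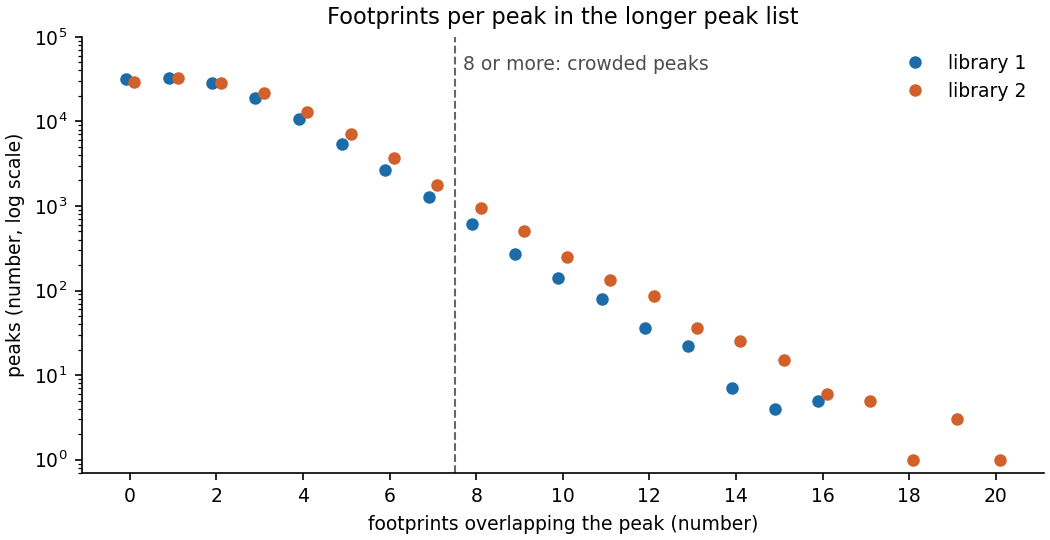
Number of peaks (log scale) by the number of footprints that overlap them, for each library. Points are single libraries; the dashed line marks the threshold, and the peaks right of it number 1176 in library 1 and 2008 in library 2.

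Crowded peaks were wide. Their median width was 400 bases in library 1 and 440 in library 2, against 200 bases among all peaks of either library. They ranged from 180 bases to 1760 in library 1 and to 1800 in library 2, and their upper quartiles were 520 and 580 bases. A wider peak has more room for footprints, so the rule in effect also selected on width. The signal, the deposited value of each peak on a scale whose normalization is not stated, had a median of 3.09 for crowded peaks of library 1 and 2.41 for those of library 2, against 0.640 and 0.641 among all peaks. Signal did not keep growing with footprint number: it was 2.91 and 2.01 among peaks with 11 or more footprints, below the values at 8. Width did keep growing, to a median of 540 bases in library 1 and 620 in library 2 at 11 or more. Crowded peaks held 4.23% of the footprints that lay in peaks in library 1 and 6.21% in library 2. Some listed peaks overlap one another, as did 221 crowded peaks of library 1 and 540 of library 2, and the members made up 1168 and 1965 separate regions.

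**Figure D2:**
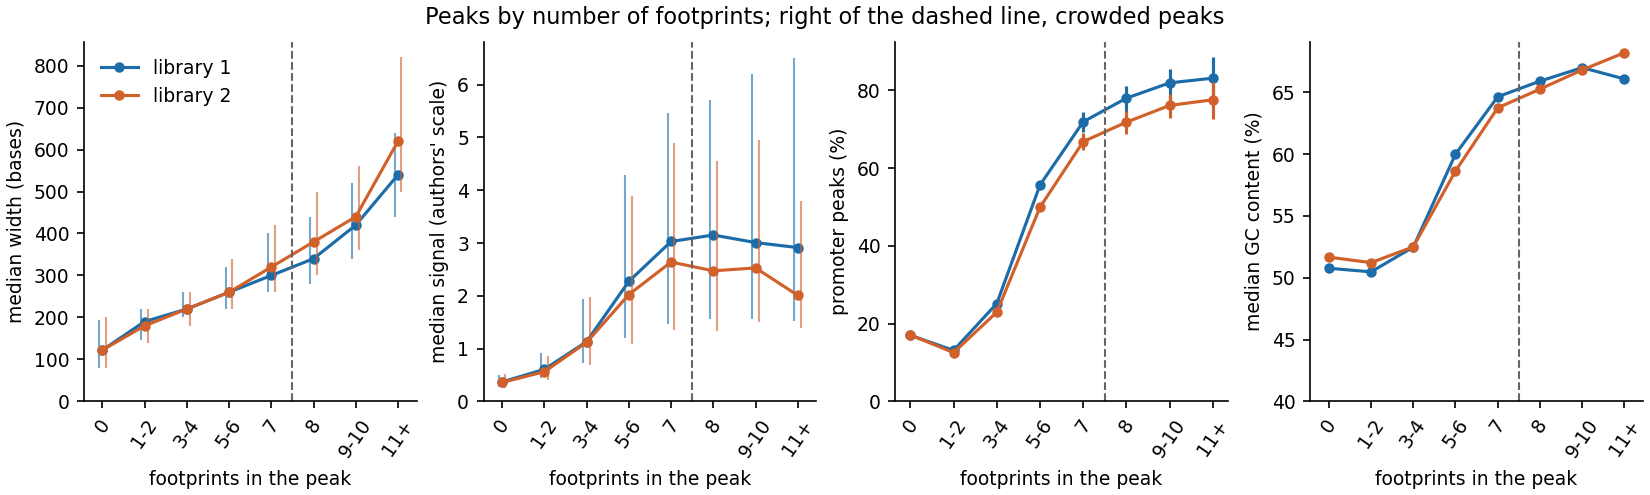
Median width, median signal, share of promoter peaks and median GC content of peaks grouped by footprint number, for each library. Vertical lines are quartiles for width and signal and exact binomial 95% intervals for the promoter share. The dashed line separates crowded peaks. In both libraries each group from 3 to 4 up to 9 to 10 footprints had a higher width, promoter share and GC content than the one before. The group with 1 to 2 footprints had a lower promoter share and GC content than the group with 0.

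Because strong peaks hold more footprints, crowded peaks were set against peaks of like signal with 1 to 2 footprints. Each crowded peak was given the unused peak of nearest signal within 0.1 on the log2 scale, which succeeded for 964 of 1176 in library 1 and 1736 of 2008 in library 2. The 212 and 272 crowded peaks with no counterpart were the strong ones, with a median signal of 7.97 and 7.01, and 93.4% and 93.8% of them were promoter peaks. Among the rest, crowded and comparison peaks had the same median signal, which was 2.31 for the first library and 2.05 for the second. The crowded ones were 420 bases wide in library 1 and 460 in library 2, against 200 bases in the comparison peaks of both. Footprints covered 24.8% of the median crowded peak in library 1 and 22.3% in library 2, against 17.1% and 16.5% of the comparison peaks. There were 2.17 footprints per 100 bases in crowded peaks of library 1 and 2.00 in library 2, against 1.00 in the comparison peaks of both.

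The footprints themselves were narrower in crowded peaks. Over all crowded peaks their median width was 10 bases in both libraries, against 17 bases in comparison peaks. Footprints of at least 20 bases made up 14.1% of those in crowded peaks of library 1 and 11.8% in library 2, against 43.2% and 43.0% in comparison peaks. The shortest, of 7 or 8 bases, made up 37.0% and 38.7%, against 19.3% and 21% in comparison peaks. Neighbouring footprints lay closer together, with a median gap of 25 bases in library 1 and 28 in library 2, against 41 and 42 bases in comparison peaks. Gaps of at most 15 bases made up 35.5% and 32.9% of gaps in crowded peaks, against 15% and 12.4% in comparison peaks. Peaks with 3 to 4 footprints and like signal had footprint cover close to that of crowded peaks, which stood at 28.6% in library 1 and 24.3% in library 2, against 26.1% in both for 3 to 4 footprints. These values come from the footprint calls that chose the peaks and are given without a test.

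Most crowded peaks were promoter peaks, a place the rule did not use. A promoter peak has its midpoint within 500 bases of any annotated transcript start in GENCODE M21. Of all crowded peaks, 941 in library 1 were promoter peaks (80.0%, with a 95% binomial interval of 77.6 to 82.3%, exact), as were 1492 in library 2 (74.3%, 72.3 to 76.2%), against 20.5% of all peaks in both libraries. Of the others, 41 lay in exons, 99 in introns and 95 outside genes in library 1, and 117, 224 and 175 in library 2. At like signal the promoter share was 77.1% of crowded and 43.3% of comparison peaks in library 1, and 71.3% and 35.1% in library 2. The difference was 35.0 ± 1.67 percentage points (SD, n = 2 libraries), with the same direction in 2 of 2. An exact two-sided permutation over libraries gave p = 0.5, the smallest that 2 libraries allow, so no difference between these sets could pass a threshold.

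Crowded peaks were also richer in GC and in CpG, which the rule did not use either. The median GC content was 66.6% in crowded and 55.5% in comparison peaks of library 1, and 66.3% and 55.3% in library 2. CpG dinucleotides stood at 0.834 of the number expected from base composition in crowded and 0.501 in comparison peaks of library 1, and at 0.796 and 0.439 in library 2. The differences were 11.1 ± 0.119 percentage points of GC and 0.345 ± 0.0168 in the CpG ratio (SD, n = 2 each; exact permutation p = 0.5 for both). Crowded promoter peaks and comparison promoter peaks differed less, at 67.4% and 61.9% GC in library 1 over all crowded promoter peaks, and at 68.3% and 62.9% in library 2. Away from promoters, the gap differed by place, again over all crowded peaks. In introns, crowded peaks had 55.2% GC in library 1 and 56.4% in library 2, against 50.9% and 52.5% in comparison peaks. Outside genes they had 55% and 53.6%, against 51.7% and 51.8%. The gap was wider in exons, at 64.8% in library 1 and 64.4% in library 2, against 53.3% and 55% in comparison peaks. These were 41 and 117 crowded peaks, and 53 and 121 comparison peaks.

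**Figure D3:**
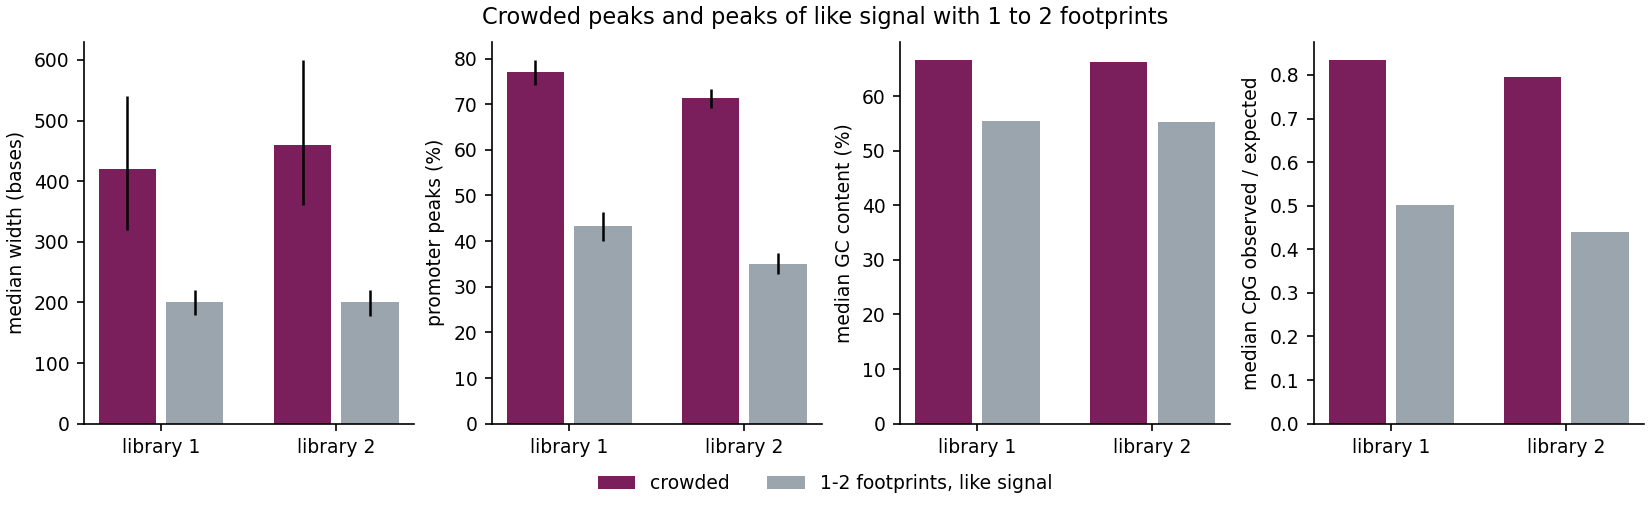
Median width, share of promoter peaks, median GC content and median CpG ratio of crowded peaks (left bar of each pair) and of peaks with 1 to 2 footprints and like signal (right bar), for each library. Lines are quartiles of width and exact binomial 95% intervals of the promoter share; the bars of crowded peaks are the taller ones in all 8 pairs.

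Part of these differences went along with width. Comparison peaks of like signal and like width, both within 0.25 on the log2 scale, were found for 582 crowded peaks of library 1 and 1053 of library 2. Promoter peaks then made up 71.0% of crowded and 58.4% of comparison peaks in library 1, and 64.9% and 54.2% in library 2. The median GC content was 66.3% and 60.0% in library 1, and 65.4% and 60.9% in library 2. Footprints covered 23.5% of the crowded peaks and 5.0% of the comparison peaks in library 1, and 21% and 3.89% in library 2. The promoter difference was 11.6 ± 1.35 percentage points at like width (SD, n = 2), against 35.0 ± 1.67 at like signal alone.

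Crowded promoters were set against all promoter peaks and against comparison promoter peaks for the starts around them. Comparison peaks were matched on signal over all places, so their promoter peaks were not of like signal. The median signal was 2.80 for crowded promoter peaks with a counterpart and 4.21 for comparison promoter peaks in library 1. In library 2 it was 2.44 and 3.53. Within 500 bases of the midpoint, starts on both strands were annotated for 25.0% of crowded promoter peaks in library 1 and 21.3% in library 2, against 13.3% and 13.0% of all promoter peaks. For crowded promoter peaks with a counterpart and comparison promoter peaks the shares were closer, at 23.0% and 19.4% in library 1. In library 2 they were 19.3% and 17.9%. Counting protein-coding starts only, they were 10.5% and 9.11% in library 1, and the order turned in library 2, with 7.6% for crowded and 9.03% for comparison promoter peaks. A protein-coding start was near 96.6% and 95.3% of crowded promoter peaks, against 87.6% and 86.9% of all promoter peaks. Where crowded promoter peaks had a counterpart, it was near 96.2% of these and 93.8% of comparison promoter peaks in library 1. In library 2 it was 94.7% and 91.6%. Of the starts' genes, 464 of 21938 protein-coding genes had a crowded promoter peak in both libraries, which is 2.12%. Of the 13822 with any promoter peak in both, this was 3.36%.

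Footprints of crowded promoters lay mainly upstream of the start. Relative to the nearest protein-coding start, library 1 had 5.70 footprints per peak in the 500 bases upstream and 3.15 in the 500 downstream, and library 2 had 5.40 and 3.56. Comparison promoter peaks had 1.25 upstream and 0.573 downstream in library 1, and 1.14 and 0.609 in library 2. The 50 bases just upstream of the start were the densest in both libraries, with 1.15 and 1.09 footprints per crowded peak. Peaks also cover the upstream side more often. Per kb of peak sequence in that bin the density was 25.9 footprints in library 1 and 24.5 in library 2 for crowded peaks, against 13.7 and 13.4 for comparison peaks. In crowded peaks it was 21.5 and 19.5 per kb at 200 to 250 bases upstream, and 17.2 and 17.1 at 200 to 250 bases downstream.

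**Figure D4:**
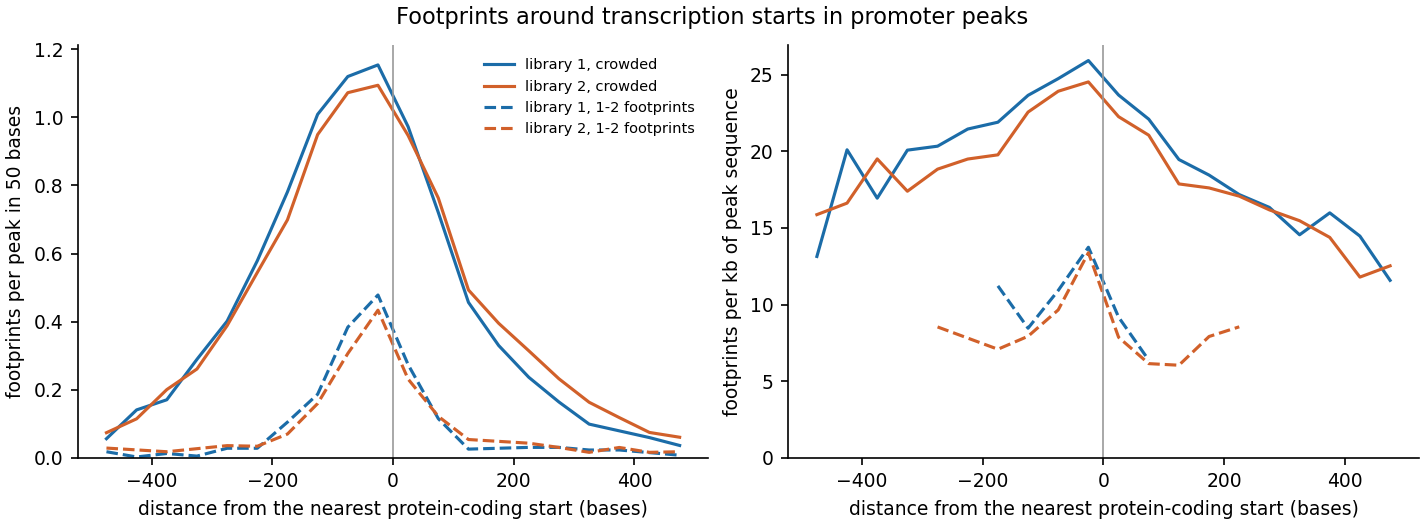
Footprints by distance from the nearest protein-coding start (negative: upstream), in bins of 50 bases, per peak (left) and per kb of peak sequence (right), in crowded promoter peaks (solid) and comparison promoter peaks (dashed). Bins with under 20 footprints are left out on the right; the highest points of all lines lie in the bin just upstream of the start.

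Short consensus letters were counted inside the footprints of crowded peaks and in the rest of the same peaks, on both strands and by the middle of the match. Of 18 motifs, 15 were denser inside footprints in both libraries, although 2 of these were too rare to read: MEF2 letters had 1 match inside and 0 in the rest in library 1, and ZNF143 letters 3 and 4. NRF1 letters (GCGCATGC), bound by a regulator of nuclear genes for mitochondria, stood at 0.691 per kb inside and 0.0524 in the rest in library 1, 13.2 times as many, and 12.8 times as many in library 2. The CREB letters TGACGTCA were 9.23 and 10.3 times as dense inside as in the rest, and EGR letters (GCGTGGGCG, which can overlap a GC box) 8.61 and 20.5 times. GC boxes were by far the most frequent, with 1721 matches inside footprints in library 1 and 2635 in library 2, or 13.5 and 12.5 per kb inside, against 3.24 and 3.18 per kb in the rest. AP-1 letters (TGANTCA) were less dense inside than in the rest in both libraries, at 0.469 and 0.639 times. Footprints of crowded peaks were also richer in G and C than the rest of these peaks, at 72.6% and 62.6% in library 1 and 72.4% and 63.2% in library 2. The same direction was seen in comparison peaks of like signal. There, NRF1 letters were 16.8 times as dense inside footprints in library 1 and 5.41 times in library 2. CREB letters were 8.02 and 22.3 times as dense, and GC boxes 4.93 and 3.47 times. Footprints of comparison peaks had 64.7% GC in library 1 and 63.5% in library 2, against 54.4% and 55.3% in the rest. The part of base composition in these densities was not tested.

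Set against the footprints of comparison peaks of like signal, 4 of the 18 motifs were denser in crowded peaks in both libraries. Of these, MEF2 had 1 match against 0 in library 1, the E-box CACGTG was only 1.16 and 1.05 times as dense, and EGR rested on 6 and 5 matches in comparison footprints. GC boxes occurred 12.8 times per kb of footprint in crowded and 6.37 times in comparison peaks of library 1, and 11.8 and 4.74 times in library 2. At like signal and width, this difference nearly vanished: GC boxes occurred 10.1 times per kb in crowded and 9.79 times in comparison footprints of library 1, and 10.1 and 9.4 times in library 2. Between crowded and comparison promoter peaks, which were not of like signal, the ratio was 1.36 in library 1 and 1.5 in library 2. Other letters were sparser in crowded than in comparison footprints. CTCF letters (CAGNGGGC), bound by the factor that anchors chromatin loops, had 0.860 matches per kb of footprint in crowded and 2.83 in comparison peaks of library 1, and 0.883 and 2.97 in library 2. NeuroD letters (CAGATGG), an E-box of neuronal basic helix-loop-helix factors, had 0.263 and 0.892 in library 1 and 0.296 and 1.37 in library 2. RFX letters (GTTGCCATG) had 0.142 and 0.338 in library 1 and 0.0854 and 0.369 in library 2, from 11 and 21 matches in the comparison footprints. At like signal and width, CTCF letters had 0.836 and 1.44 in library 1 and 0.949 and 1.25 in library 2. NeuroD letters then had 0.361 and 0.683, and 0.427 and 0.959. RFX letters had 0.095 and 0.531, and 0.0834 and 0.144, from 7 and 3 matches in comparison footprints. Between crowded and comparison promoter peaks, the ratio was 0.458 and 0.544 for CTCF, 0.188 and 0.676 for NeuroD and 0.941 and 0.483 for RFX. NeuroD and RFX rested on few matches there. ETS letters (CCGGAAG) were 0.658 and 0.678 times as dense in crowded as in comparison footprints, and 0.412 and 0.362 times between promoter peaks. For NRF1 letters the ratio was 0.658 in library 1 and 1.54 in library 2, and 0.399 and 0.676 between promoter peaks. For CREB letters it was 0.889 and 1.10. Between promoter peaks it was 0.395 and 0.461, from 10 and 11 matches in comparison footprints. The central 150 bases were searched in all crowded peaks, with or without a counterpart. A GC box was found there in 52.4% of crowded peaks of library 1 and 49.9% in library 2. It was found in 25.6% and 22.7% of comparison peaks and in 13.9% of all peaks in both libraries. TGACGTCA was found in 1.79% and 1.15% of crowded peaks, close to the 1.76% and 0.922% of comparison peaks, and in 0.671% and 0.612% of all peaks.

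Crowded regions were open in both libraries, as were comparison peaks, while a minority were crowded in both. Every crowded peak of library 1 overlapped a peak of library 2 (1176 of 1176, exact binomial 95% interval 99.7 to 100%), and 98.7% of those of library 2 overlapped a peak of library 1 (98.0 to 99.1%). Comparison peaks of like signal overlapped a peak of the other library almost as widely, in 98.7% of library 1 and 97.3% of library 2. A crowded peak of the other library was overlapped by 491 of the 1176 (41.8%, 38.9 to 44.6%) and by 505 of the 2008 (25.1%, 23.3 to 27.1%). For crowded peaks with a counterpart of like signal these shares were 40.1% in library 1 and 22.4% in library 2. For their comparison peaks they were 1.97% and 1.38%. Over the bases of a crowded peak the other library had a median of 7 footprints for peaks of library 1 and 6 for those of library 2, against 3 and 2 for comparison peaks. Of all crowded peaks, 86.9% in library 1 and 76.8% in library 2 held at least 5 footprints of the other library. Among those with a counterpart it was 84.5% and 73.7%, against 10.3% and 6.05% of comparison peaks. Crowded peaks are wider and so cover more bases of the other library. At like signal and width these shares were 76.3% for crowded and 29.0% for comparison peaks in library 1, and 61.3% and 13.0% in library 2. A crowded peak of the other library was then overlapped by 29.0% and 6.36% in library 1, and by 13.0% and 1.9% in library 2. Library 2 listed 323715 footprints in all and library 1 listed 271439, and the part of this in the sizes of the crowded sets was not tested.

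Partner peaks, each the other's longest overlap, numbered 477 where both were crowded. Over all 99904 partner pairs, crowded or not, the footprint numbers of the libraries had a Spearman rho of 0.513. Within crowded pairs, whose range of counts the choice narrowed, rho was lower. It was 0.255 for pairs crowded in library 1, 0.203 for those crowded in library 2 and 0.207 for those crowded in both. Regions share the depth and the calling thresholds of their library, and no p is given. Among pairs crowded in library 1 the median count was 8 in library 1 and 7 in library 2. Among pairs crowded in library 2 it was 9 in library 2 and 6 in library 1. In either direction the library that had chosen the peak counted more. The pairs were kept because that library counted at least 8, so the choice favoured this order and it is given as a description.

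**Figure D5:**
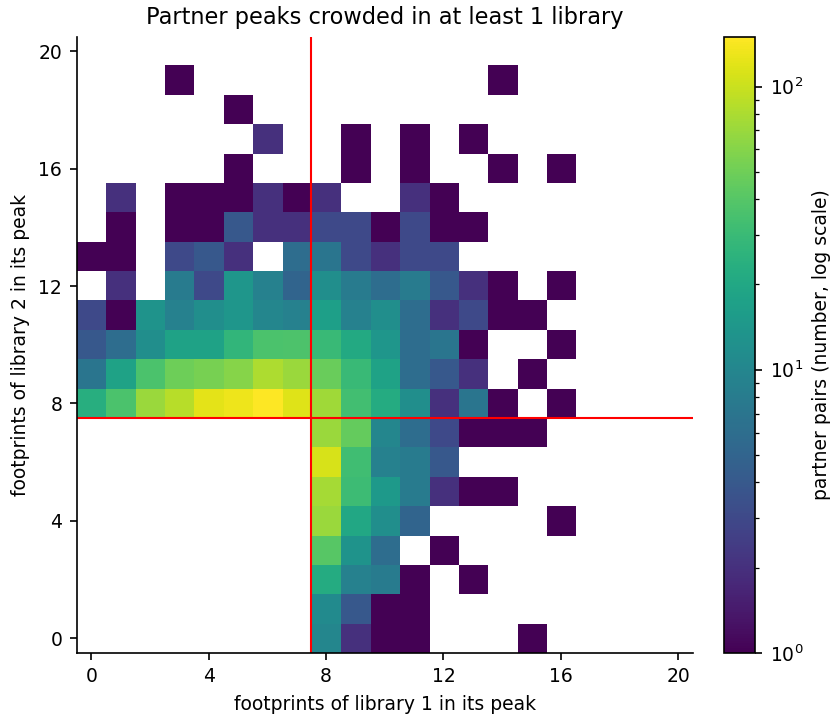
Footprint numbers of library 1 (horizontal) and library 2 (vertical) in partner peaks of which at least 1 was crowded; the color gives the number of pairs on a log scale. The 477 pairs crowded in both lie right of and above the red lines, and pairs crowded in library 1 have a median of 7 footprints in library 2.

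A smaller share of single footprints was found in both libraries in crowded than in comparison peaks. Of the footprints in crowded peaks, 62.6% in library 1 (61.7 to 63.5%) and 52.1% in library 2 (51.3 to 52.8%) shared at least 1 base with a footprint of the other library. In the crowded peaks with a counterpart of like signal it was 58.8% and 47.9%, and in their comparison peaks 78.9% and 71.8%. The part of the narrower footprints of crowded peaks in this was not tested. At like width and signal the gap was smaller, at 53.5% for crowded and 60.2% for comparison peaks in library 1, and 41.8% and 42.5% in library 2.

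Agreement went with signal. In the weakest of 3 groups of crowded peaks cut by signal, 43.1% of footprints in library 1 and 28.9% in library 2 were shared. In the middle group it was 66.6% and 52.4%, and in the strongest 78.2% and 75.2%. The weakest group was also wider, with medians of 540 bases in library 1 and 580 in library 2, against 340 and 360 bases in the strongest. Promoter peaks made up 62.9% and 54.1% of the weakest group and 93.6% and 91.5% of the strongest. A crowded peak of library 2 in the weakest group overlapped a crowded peak of library 1 in 12.7% of cases, against 36.4% in the strongest. In library 1 these shares were 37.1% and 45.3%.

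Few crowded peaks had next to no footprints in the other library. Over the same bases, 21 of library 1 (1.79%) and 81 of library 2 (4.03%) held 0 or 1 footprint of the other library, and 12 and 44 held none. They were weak. Their signal had a median of 0.789 in the first library and 0.906 in the second, against 3.18 and 2.52 for the other crowded peaks. Only 23.8% and 38.3% were promoter peaks, against 81.0% and 75.8% of the others. Of the 12 with none in library 2, the 4 strongest lay at the start of Gm15726 on chromosome X, in AC061963.1 with Kmt2a as the nearest coding start, in Reep2, and in 4932441J04Rik with Pcdh7 as the nearest coding start. The first held 11 footprints in library 1 and 0 in library 2, with signals of 1.504 and 1.801 in peaks of 540 bases in both. Both libraries therefore listed a peak there, and only one listed footprints. Of the 44 crowded peaks of library 2 with none in library 1, the 4 strongest lay in Dusp4, a phosphatase of MAP kinases, and at starts of Cul1, a scaffold of ubiquitin ligases, Tyro3, a receptor tyrosine kinase, and Cacnb1, a calcium channel subunit. Tyro3 had 10 footprints in a peak of 560 bases in library 2 and Cacnb1 8 in 460 bases, and neither region had a peak in library 1.

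The peaks with the most footprints in both libraries were led by one outside genes, 989 bases from the nearest start, that of Fbxo11, an F-box protein of a ubiquitin ligase. It spanned chr17:88065941-88066620 in library 1 and had 14 footprints in library 1 and 19 in library 2. Its signal was 2.82 ± 0.156 (SD, n = 2 libraries, as in the values that follow). Abtb1, which encodes a protein with ankyrin repeats and BTB domains, had 16 footprints in both libraries at its promoter (chr6:88841901-88842540), with a signal of 6.79 ± 0.990. All 17 footprints of library 1 over this region shared a base with one of library 2. The region reaches past the library 1 peak, which is why they number 17. Wipi1, a phosphoinositide-binding protein of autophagosome formation, had 14 and 16 footprints (chr11:109611421-109612040) and a signal of 6.81 ± 1.01. Of the 14 footprints of library 1 in each, 12 were shared near Fbxo11 and 12 at Wipi1.

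Weaker peaks were also among the 8 with the most footprints. Syndig1, which encodes a membrane protein of excitatory synapses, had 13 footprints in library 1 and 17 in library 2 at a signal of 1.13 ± 0.260, and 10 of 13 were shared. Fam20c, a kinase of secreted proteins, had 16 and 12 at 2.00 ± 0.515, with 9 of 16 shared. The peak in an intron of Fgf14, a partner of voltage-gated sodium channels, had 11 and 17 at 1.26 ± 0.274 (chr14:124675261-124676140), with 3 of 11 shared. The remaining 2 were 1190002N15Rik, with 11 and 16 footprints, and Trib1, a pseudokinase, with 13 and 14, of which 10 of 13 were shared.

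Pairs crowded in both libraries whose midpoints lay over 500 bases from any start numbered 68. Of these, 32 were within 2000 bases of a start and 20 were over 10000 bases away. Those with the most footprints lay near Fbxo11, in Fgf14, near Spred1, an inhibitor of Ras signalling, and near Fat3, a large cadherin. They were followed by peaks in Maml3, a coactivator of Notch, and near Rap2a, a small GTPase. Their distances to the nearest start were 989, 1427, 634, 985, 2706 and 794 bases, so all but that in Maml3 lay within 2000 bases of a start. Peak widths in library 1 were between 580 bases near Fat3 and 940 bases in Maml3. Farther out, the crowded pair with the most footprints lay 129979 bases from the nearest start (chr15:69104821-69105220), with 10 footprints in library 1 and 12 in library 2. Its signal was low, at 0.683 ± 0.00275, and its GC content was 47.3% in library 1. It was chosen after its values were seen.

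By footprints per 100 bases, the promoter of Tmem147, a protein of the endoplasmic reticulum, led with 3.64 in library 1 and 4.55 in library 2. These were 8 and 10 footprints in the same 220 bases, at a signal of 5.54 ± 0.419, and all 8 of library 1 shared a base with one of library 2. Rnf10, a RING finger protein, followed with 3.33 and 4.17 per 100 bases, and again all 8 of library 1 were shared. A peak 559 bases from a start of Atxn7l3, a subunit of the SAGA deubiquitinating module, came next, with 8 footprints in both libraries.

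Lists of genes were set beside the share of all protein-coding genes, with no test. A promoter peak can also belong to a neighbouring start within the same window. Of 19 genes of the circadian clock, the feedback loop that keeps daily time, 6 had a crowded promoter peak in both libraries (31.6%, against 3.36% of all genes with a promoter peak in both). The median over the list of the mean footprint number was 7, against 4.5 for those protein-coding genes that, like all 19 here, had a promoter peak in each library. Arntl, which encodes the activator BMAL1, had 9 footprints in library 1 and 11 in library 2. The repressor gene Per1 had 10 and 9, Per3 had 9 and 10, and Nr1d2, the gene of a nuclear receptor that represses Arntl, 10 and 9. Dbp, with 8 and 10, and Ciart, with 10 and 8, were named after their values were seen. Clock genes that were not crowded in both included Per2 with 7 and 7 and Clock with 4 and 6. The 6 promoters had signals between 4.66 and 12.01 over both libraries, above the median of crowded peaks. The part of this signal in their footprint number was not tested.

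Of the 20 immediate early genes, switched on quickly by neuronal activity, 2 were crowded in both libraries. Npas4, an activity-dependent transcription factor, had 8 and 13 footprints at signals of 2.38 and 2.56, and Homer1, a scaffold of the postsynaptic density, had 9 and 8. In further lists, Nefm, a neurofilament subunit, had 9 and 9 footprints, and Hspa8, a constitutive chaperone, 10 and 10. Rps19, a ribosomal protein, had 10 and 9. At a background of 2.12% of all protein-coding genes, lists of this size can be at 0 without standing apart. None of the 12 genes each of excitatory neurons, inhibitory neurons, astrocytes, oligodendrocytes, microglia and endothelial cells was crowded in both, and neither were the 17 of oxidative phosphorylation. Excitatory neuron genes, all 12 with an open promoter in each library, had a median of 3.75 footprints, and Tbr1 among them had 7 in library 1 and 10 in library 2. Astrocyte genes also had a median of 3.75, with 4 and 11 for Slc1a2, the glutamate transporter of astrocytes. The medians were 0.750 for oligodendrocyte genes and 0.25 for microglial genes, of which 4 of 12 had a promoter peak in both. No liver gene and no gene of muscle and heart had one in both. Tbr1, Slc1a2, Per2 and Clock were chosen after their values were seen. Over all lists, 12 of 214 genes (5.61%) were crowded in both libraries, against 2.12% of all protein-coding genes. Of these 12, 6 were the clock genes. A promoter peak in both libraries was found for 165 of the 214, and the share among all protein-coding genes with one was 3.36%.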

How the data were processed

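DNase-seq peaks and footprints of 2 libraries were used. Per the deposited readme files, both lists were made from each library's own alignments on mm10. The aligner, the callers and their thresholds, not given in the sources used here, could change both. The signal of each peak was deposited by the authors with no stated normalization, and each line of the deposited footprint lists gives a q-value of 0.01. The longer of the 2 peak lists was used. Place came from GENCODE M21 and sequence from RefSeq GRCm38.p6, on chromosomes 1 to 19, X and Y. Comparison peaks were taken without replacement, strongest crowded peak first. Pairs and genes were named by rank of footprint number or of footprints per 100 bases, with genes taken from the nearest start within 500 bases or else the gene around the peak; up to 3 genes per list were named, with ties, and per library the 4 crowded peaks with the fewest footprints of the other one. An item that this rule takes is not reported here. The members and the 15 gene lists were chosen with earlier results of these data known. Counting, comparison, overlap and motif steps were tested on simulated data. Alternatives were thresholds of 6 and 10 footprints, footprint midpoints, merged peaks, the shorter list, other comparison peaks, promoter windows of 250 and 2000 bases, overlaps of at least 50% and each library alone. The scripts ran under Python 3.11.15 with scipy 1.17.1, numpy 2.4.6, matplotlib 3.10.9 and pandas 2.3.3.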

Additional observations from a re-analysis of the deposited data

How the results depend on the processing

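No paired analysis was possible because there is only 1 group. None of the differences listed here changed sign under the alternatives run. Footprint cover did in library 2, at 22.3% for crowded and 16.5% for comparison peaks at like signal, and 24.3% and 26.1% against 3 to 4 footprints. EGR letters did there at like width, with 0.188 per kb of crowded and 0.24 of comparison footprints. The mean number of crowded peaks over both libraries was 1592; it was 6315 with at least 6 footprints and 428 with at least 10. The excess width of crowded over comparison peaks, 240 bases, was 140 at 6 footprints, 330 at 10, 20.0 at like signal and width, and 210.0 against peaks with 3 to 4 footprints. The excess in footprints per 100 bases, 1.09, was 1.78 at like width and 0.564 against 3 to 4 footprints. The promoter excess of 35.0 percentage points was 28.3 at 6 footprints, 36.7 at 10, 11.6 at like width, 28.3 against 3 to 4 footprints, 32.0 with a window of 250 bases and 33.3 with 2000. The GC excess of 11.1 points was 11.2 with merged peaks, 5.41 at like width and 9.39 against 3 to 4 footprints. The CpG excess of 0.345 was 0.368, 0.0996 and 0.25 in the same order. The mean share of crowded peaks that overlap a peak of the other library, 99.3%, was 98.3% in the shorter list and 87.3% with an overlap of at least 50% of both. The share of footprints shared, 57.3%, was 41.5% with that overlap. Motifs denser in crowded than in comparison footprints numbered 4 in both libraries, 8 in library 2 alone and 4 in library 1 alone. List genes with a crowded promoter peak numbered 12 in both libraries, 24 in library 2 alone and 20 in library 1 alone. The differences at like width rest on the crowded peaks for which such a peak was found, 582 and 1053. Depth is unknown and may differ between the libraries, and it limits how many footprints can be called.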
